A study of Mus musculus with 6 samples.

Results

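The genes described here encode the vacuolar ATPase (V-ATPase), the proton pump of lysosomes, and the proteins that carry the signal of lysosomal amino acids to the kinase complex mTORC1. A fixed list of 38 symbols was matched to the annotation of the array, and probe sets with exactly 1 gene were kept. This gave 37 genes with 86 probe sets, out of 18195 genes on the array. Of the 37 genes, 16 encode V-ATPase subunits, and the other 21 are called sensing genes here. Atp6v0c, which encodes the main proteolipid of the rotor ring, was paired with no probe set and was not analysed here. The members were proposed with results of this same comparison in view, so their differences between coatings are given as a description, and the counts of members past a threshold support nothing by themselves.

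Myoblasts isolated from the hindlimbs of C57BL/6JRj males, 9 to 15 weeks old, were grown for 72 hours on fibronectin (3 samples) or on collagen I (3 samples). Cells on either coating received Ham's F-10 medium, 20% serum and 2.5 ng/ml basic fibroblast growth factor, and were harvested with trypsin before RNA was extracted. An Affymetrix mouse expression array gave 1 log2 signal per probe set and sample, so that a difference of 1 is a doubling. Whether each sample was its own culture or animal is not stated in the labels. Standard errors and p-values therefore cover the variation among these 6 samples, which could be technical alone.

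The V-ATPase is built from a cytosolic V1 sector, which breaks down ATP, and a V0 sector in the membrane, which moves protons into the lumen. The acid pH it makes lets lysosomal hydrolases work. The pump also touches Ragulator, the anchor of the Rag GTPases on the lysosomal surface. When amino acids are plentiful the Rag GTPases bring mTORC1 to the lysosome, where the small GTPase Rheb switches it on, and GATOR1 and the TSC proteins act as brakes. In skeletal muscle, mTORC1 is known for driving growth of fibres and the activation of stem cells, and human mutations in an assembly factor of the pump cause a myopathy with excess autophagy. The transcription factors Tfeb, Tfe3 and Mitf are known to bind E-box sequences in promoters of lysosomal and V-ATPase genes.

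The 6 arrays had similar overall signals, with medians lower on average on fibronectin. Centring each sample on its median moved the median log2 change over all genes from 0.004 to 0.058. Sample medians lay between 2.3 and 2.4, and correlations across probe sets were 0.997 to 0.998 within a coating and 0.994 to 0.995 between coatings. Genes were tested when the mean over all samples reached 2.33, the median over all probe sets, and 36 of the 37 measured members did. No tested member had a mean below that level on either coating. The myoblast factor Myod1 had signals of 9.99, 10.06 and 10.06 on fibronectin and 10.13, 10.09 and 10.08 on collagen, far above the filter on both coatings.

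Every V-ATPase subunit that was bright enough to test was lower on fibronectin than on collagen I. All 15 passed the threshold (limma, adjusted p under 0.05 over all genes) in the lower direction, and 0 passed in the higher. The median log2 change was -0.54, against 0.00 over all 10942 genes tested, of which 20.2% were called lower and 19.9% higher (40.1% in either direction). Because the members were picked from this contrast, nothing is read from their count against that share. In each of the 15 genes the highest fibronectin sample lay below the lowest collagen sample, a pattern seen in 25.9% of all genes tested, with the opposite order in 27.4%. With each sample centred on its median, 15.0% of all genes were called lower and 27.2% higher, and the 15 V-ATPase genes and 7 sensing genes were still lower. Among the 21 sensing genes 10 were called lower and 0 higher, with a median log2 change of -0.13. In samples of bulk RNA, fewer cells of a type that makes a transcript and less of it per cell cannot be told apart.

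**Figure D1:**
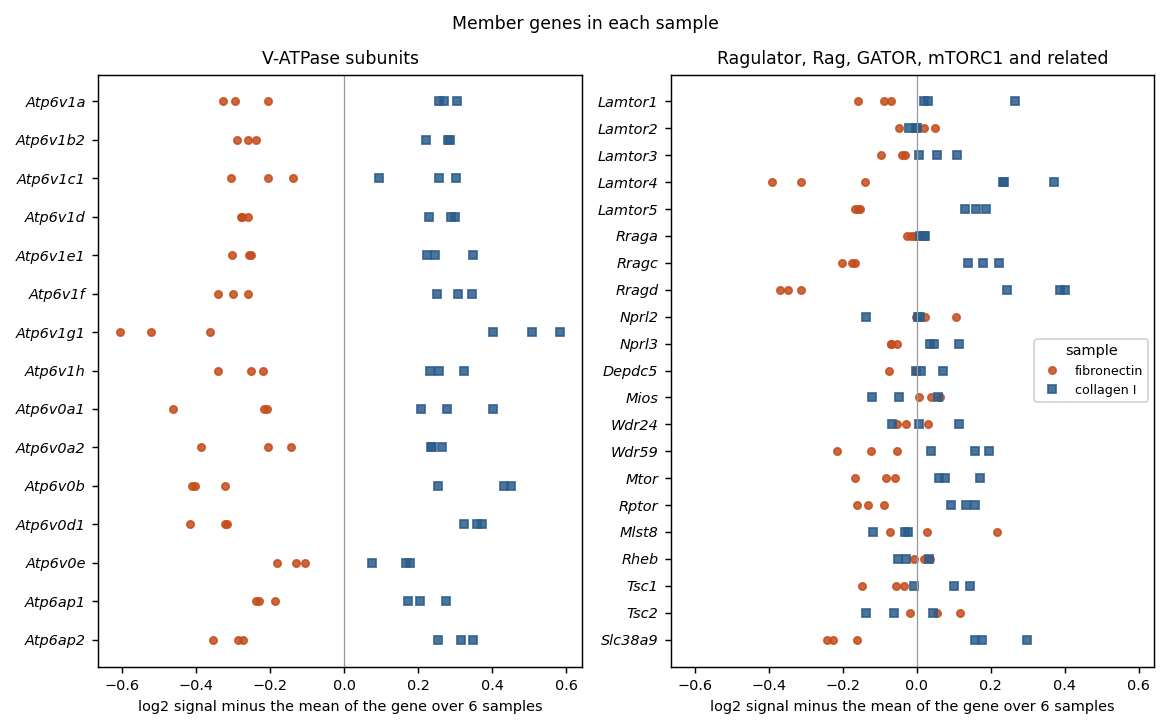
Log2 signal of each tested member in each sample, as the deviation from the mean of the gene over the 6 samples (left, V-ATPase subunits; right, sensing genes; circles, fibronectin; squares, collagen I). In the left panel the 3 fibronectin samples lie below the 3 collagen samples for all 15 genes, and in the right panel for 13 of 21. Of these 13, Rraga, Lamtor3 and Tsc1 did not pass the threshold. Over all genes tested, 25.9% were lower without overlap and 27.4% higher.

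Averaged over the 15 V-ATPase genes, the deviation from the mean of each gene was -0.32, -0.27 and -0.28 on fibronectin and 0.26, 0.32 and 0.29 on collagen. The samples within a coating lay close together, with SDs of 0.03 on each. The gap between coatings supports nothing by itself, because the genes were proposed with this contrast in view. The 21 sensing genes gave -0.10, -0.05 and -0.10 on fibronectin and 0.11, 0.07 and 0.07 on collagen. Their difference between coatings was -0.16, compared with -0.57 for the V-ATPase genes and -0.02 for all genes tested. In the mean over all genes falls and rises cancel, since 20.2% were called lower and 19.9% higher.

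**Figure D2:**
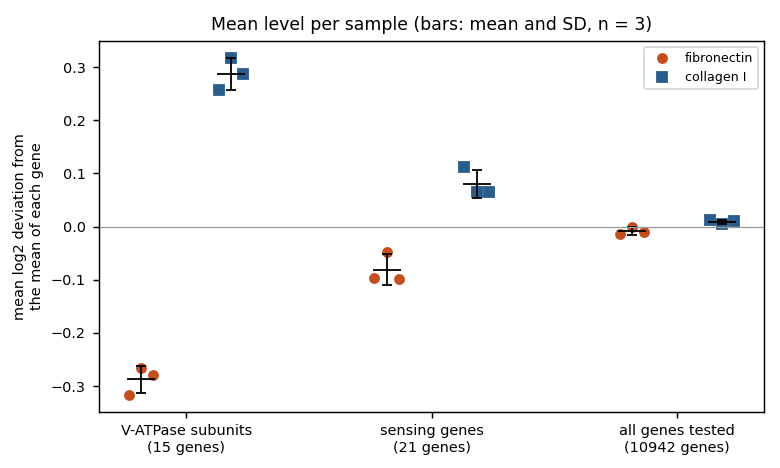
Mean deviation of V-ATPase subunits (15 genes), sensing genes (21 genes) and all genes tested (10942 genes) from the mean of each gene, in log2 units, for each fibronectin sample (circles) and collagen sample (squares). Bars give mean and SD (n = 3 per coating); the difference between coatings is -0.57, -0.16 and -0.02 for the 3 sets.

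The 8 subunits of the V1 sector were all called lower (all genes, 20.2% lower and 19.9% higher), with a median log2 change of -0.54. Atp6v1g1 (Entrez gene 66290), a subunit of the peripheral stalk that keeps the catalytic ring from turning, had signals of 9.57, 9.49 and 9.73 on fibronectin and 10.50, 10.68 and 10.61 on collagen. That is a 1.99-fold fall (log2 change -0.996, SE 0.07), and the coatings were separated by 0.77. A further probe set of Atp6v1g1 fell by 1.27 on the log2 scale. Atp6v1f (Entrez gene 66144), part of the central rotor, had signals of 8.97, 8.93 and 9.01 on fibronectin and 9.58, 9.62 and 9.53 on collagen, a fall of 1.52-fold (log2 SE 0.05).

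The 6 other V1 subunits fell by similar amounts, between 1.35-fold and 1.47-fold. Atp6v1a, the catalytic subunit that hydrolyses ATP, averaged 7.82 ± 0.06 on fibronectin and 8.38 ± 0.03 on collagen (SD, n = 3 each; log2 change -0.55). Its partner in the ring, Atp6v1b2, had a log2 change of -0.53. Atp6v1d, the rotor shaft, averaged 7.70 ± 0.01 on fibronectin and 8.24 ± 0.04 on collagen (SD, n = 3 each). Atp6v1e1, of the peripheral stalk, and Atp6v1h, which restrains ATP use by detached V1, had log2 changes of -0.54 each. Atp6v1c1, a subunit at the contact between V1 and V0 that is released when the pump comes apart, showed the smallest fall of the sector (log2 change -0.43, SE 0.07).

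In the V0 sector the 5 tested subunits were called lower (all genes, 20.2% lower and 19.9% higher), with more variation in size. Atp6v0b (Entrez gene 114143), a proteolipid of the proton-carrying ring, had signals of 7.70, 7.78 and 7.70 on fibronectin and 8.36, 8.56 and 8.54 on collagen (1.69-fold lower, log2 SE 0.06). By its suffix, the probe set used may also hybridise with similar transcripts, as may those used for Atp6v1e1, Atp6ap1 and Atp6ap2. The other 2 probe sets of Atp6v0b fell by 0.78 and 0.28 on the log2 scale. Atp6v0d1 (Entrez gene 11972), which couples the rotor to the ring, had signals of 7.87, 7.96 and 7.97 on fibronectin and 8.61, 8.65 and 8.66 on collagen. The fall was 1.63-fold, and the SDs were 0.06 on fibronectin and 0.02 on collagen.

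The remaining V0 genes form the proton channel and the base of the sector. Atp6v0a1 (Entrez gene 11975), an isoform of the subunit that lines the proton path, had signals of 3.85, 4.10 and 4.09 on fibronectin and 4.52, 4.71 and 4.59 on collagen, with a log2 change of -0.59 and an SE of 0.08. A dim second probe set of Atp6v0a1 had a change of 0.19 and did not pass. Atp6v0a2, the isoform typical of the Golgi, had a log2 change of -0.49, while 1 of its 3 probe sets did not pass (-0.08). Atp6v0e, a small membrane subunit, had 8.49, 8.52 and 8.44 on fibronectin and 8.79, 8.80 and 8.70 on collagen, the smallest change of the pump (log2 change -0.28, SE 0.05). The paralogue Atp6v0e2 lay below the brightness filter, with means of 1.27 ± 0.17 on fibronectin and 1.40 ± 0.17 on collagen (SD, n = 3 each), and its samples overlapped.

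Both accessory subunits, which help assemble and sort the pump, were called lower (all genes, 20.2% lower and 19.9% higher). Atp6ap2 (Entrez gene 70495), also known as the prorenin receptor, had signals of 9.14, 9.21 and 9.22 on fibronectin and 9.85, 9.81 and 9.75 on collagen, a 1.53-fold fall. Its 3 probe sets fell by 0.61, 0.70 and 0.75 on the log2 scale. Atp6ap1 averaged 8.80 ± 0.03 on fibronectin and 9.23 ± 0.05 on collagen (SD, n = 3 each; log2 change -0.44).

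**Figure D3:**
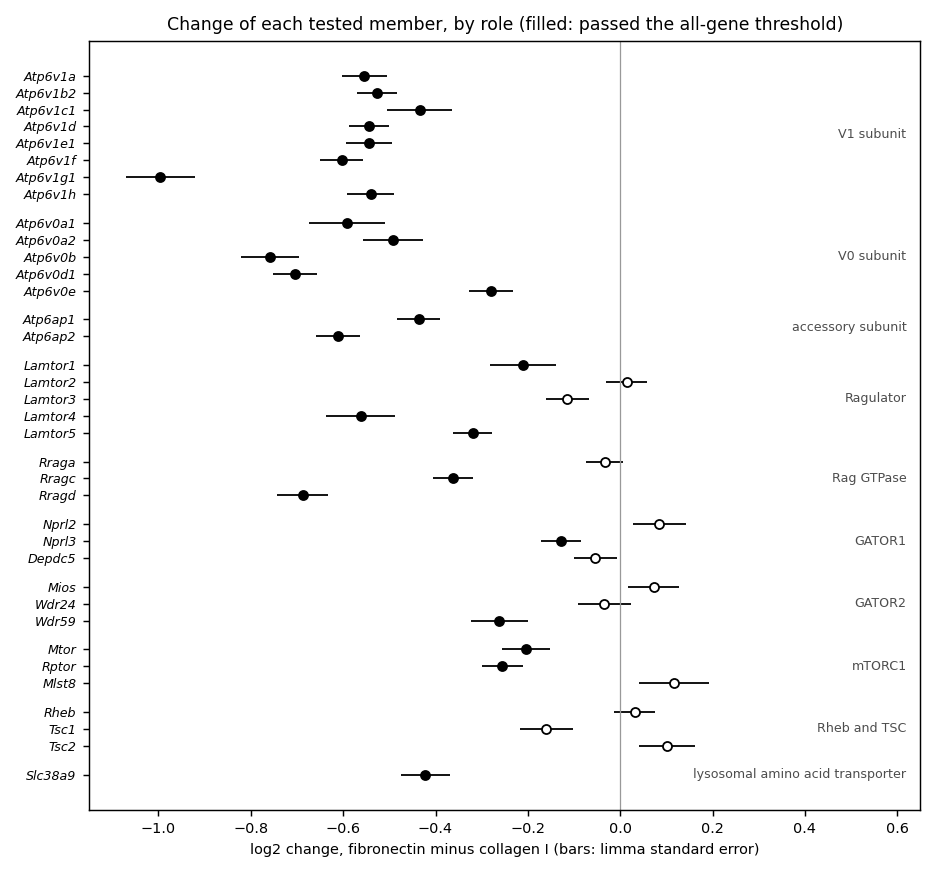
Log2 change, fibronectin minus collagen I, of each tested member (36 genes), grouped by role; bars are limma standard errors and filled points passed the all-gene threshold. V-ATPase subunits lie between -0.996 and -0.28, and sensing genes between -0.69 and 0.12.

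Since the V-ATPase subunits moved together, the promoters of the members were searched for the E-box CACGTG and for 2 longer forms of it, TCACGTGA and the same 8 letters with a G before and a C after them, which resemble the element bound by the Tfeb family. All 3 motifs read the same on both strands, and each longer one contains the shorter. Windows of 250 bases before to 50 bases after each start came from RefSeq (build GRCm38.p6) and were matched for 31 members, 12 of them V-ATPase genes (Atp6v0c among them) and 19 sensing genes. CACGTG was present in 4 of 12 V-ATPase promoters (33.3%) and in 4 of 19 sensing promoters (21.1%), against 8.09% of all 27025 genes with a window, 12.2% of those tested on this array and 14.1% of those called lower. TCACGTGA was found in 3 V-ATPase promoters and 0 sensing promoters, against 1.12% of all genes, 2.38% of tested genes and 3.69% of those called lower. The longest form was found in 0 members, against 0.37% of all genes, 0.865% of tested genes and 1.28% of those called lower. A match is a description of letters in a window, with so few members that 1 promoter moves a share by several percentage points.

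All 8 promoters with a match are shown because the counts rest on them. Each is written 5′ to 3′ on the strand of the gene with the longest motif in capitals, and only 30 bases are given where the window lies inside the annotated span of the gene. In Atp6v0d1 the motif starts 4 bases before the transcription start, in Atp6v0e it starts 2 bases after it, and in Atp6v1a 132 bases before it. The window of Atp6v0b held 2 copies of CACGTG, and the stretch shown does not hold both.
Atp6v0d1, chr8:105566061-105566118, minus strand: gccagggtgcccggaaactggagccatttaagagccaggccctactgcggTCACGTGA
Atp6v0e, chr17:26676348-26676405, plus strand: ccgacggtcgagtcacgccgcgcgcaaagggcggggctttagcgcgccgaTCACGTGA
Atp6v1a, chr16:44139373-44139402, minus strand: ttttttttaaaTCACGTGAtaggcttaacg
Atp6v0b, chr4:117887348-117887377, minus strand: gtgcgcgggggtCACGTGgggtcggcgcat
Lamtor4, chr5:138255312-138255417, plus strand: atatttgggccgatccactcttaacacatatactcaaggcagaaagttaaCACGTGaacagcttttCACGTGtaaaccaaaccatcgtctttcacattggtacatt
Rragc, chr4:123917271-123917376, plus strand: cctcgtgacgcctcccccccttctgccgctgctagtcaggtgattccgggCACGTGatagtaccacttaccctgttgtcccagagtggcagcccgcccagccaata
Lamtor1, chr7:101905719-101905824, plus strand: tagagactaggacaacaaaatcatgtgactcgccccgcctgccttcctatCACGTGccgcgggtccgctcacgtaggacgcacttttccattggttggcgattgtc
Rheb, chr5:24842402-24842507, minus strand: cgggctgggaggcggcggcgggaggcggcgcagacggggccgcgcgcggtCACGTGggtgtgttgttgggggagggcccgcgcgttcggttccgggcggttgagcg

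The motif lay 68 bases before the start in Lamtor1 and 96 bases before it in Rheb, which was not called. The holders of TCACGTGA were Atp6v0d1, Atp6v1a and Atp6v0e, with log2 changes of -0.70, -0.55 and -0.28. Other tested V-ATPase genes had a window without any of the motifs. Of these, Atp6v1d, Atp6v1e1 and Atp6v1f had log2 changes of -0.54, -0.54 and -0.60. Those of Atp6v0a1, Atp6ap1 and Atp6ap2 were -0.59, -0.44 and -0.61. No window was matched for Atp6v1b2, Atp6v1c1, Atp6v1g1, Atp6v1h and Atp6v0a2. Among sensing genes, the holders of CACGTG, Lamtor4, Rragc, Lamtor1 and Rheb, had log2 changes of -0.56, -0.36, -0.21 and 0.03. Rragd, at -0.69, was among the sensing genes with a window without any of the motifs. Whether the motifs have a part in the changes was not tested.

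Ragulator, the pentamer that holds the Rag GTPases on the lysosome, was uneven. Of its 5 subunits 3 were called lower and 0 higher (all genes, 20.2% and 19.9%), and the call of Lamtor1 was unstable. Lamtor4 (Entrez gene 66096) had signals of 6.60, 6.78 and 6.53 on fibronectin and 7.29, 7.15 and 7.15 on collagen, a 1.48-fold fall (log2 SE 0.07). Lamtor5 averaged 8.20 ± 0.01 on fibronectin and 8.52 ± 0.03 on collagen (SD, n = 3 each; log2 change -0.32), but its second probe set, at -0.13, did not pass.

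The lipid-anchored scaffold Lamtor1 had 9.07, 9.05 and 8.98 on fibronectin and 9.40, 9.15 and 9.17 on collagen. Its log2 change of -0.21 had an adjusted p of 0.0499 and was lost in 13 of 17 alternative settings, among them the omission of any 1 of the 6 samples. Without collagen replicate 1 the change was -0.13. Lamtor3 and Lamtor2, which pair with each other in the complex, did not pass, with log2 changes of -0.11 and 0.01.

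Of the 3 Rag GTPases measured, 2 were called lower and 0 higher (all genes, 20.2% and 19.9%). Rragd (Entrez gene 52187), which pairs with the A-type Rag and responds to Tfeb family factors, had signals of 6.15, 6.18 and 6.13 on fibronectin and 6.74, 6.90 and 6.88 on collagen. This 1.61-fold fall (log2 change -0.69, SE 0.06) was the largest among the sensing genes. Its close relative Rragc averaged 7.87 ± 0.02 on fibronectin and 8.24 ± 0.04 on collagen (SD, n = 3 each; log2 change -0.36). Rraga, their partner, had 8.09, 8.08 and 8.09 on fibronectin and 8.11, 8.12 and 8.13 on collagen. The samples of Rraga did not overlap, but the change of -0.03 (SE 0.04) did not pass.

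The GATOR complexes, which relay amino acid shortage and supply to the Rag GTPases, showed small changes. In GATOR1, the brake on the A-type Rag, Nprl3 had 6.28, 6.30 and 6.28 on fibronectin and 6.46, 6.40 and 6.38 on collagen. Its log2 change of -0.13 (adjusted p = 0.0464) was lost in 12 of 17 alternatives, among them the omission of any 1 sample. Nprl2 and Depdc5 did not pass, with log2 changes of 0.08 and -0.05.

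In GATOR2, which opposes GATOR1, Mios had 6.33, 6.38 and 6.36 on fibronectin and 6.38, 6.20 and 6.27 on collagen, and the coatings overlapped. Wdr59 fell by 0.26 on the log2 scale (SE 0.06), and Wdr24 had a change of -0.03 that did not pass. The kinase Mtor had 6.81, 6.91 and 6.89 on fibronectin and 7.14, 7.03 and 7.05 on collagen. It fell 1.15-fold, a call lost in 5 of 17 alternatives, among them the omission of fibronectin replicate 1 (-0.17). Rptor, which picks the substrates of mTORC1, fell 1.19-fold, and the shared subunit Mlst8 had a change of 0.12 (SE 0.08) that did not pass.

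The final switch of the pathway showed no call. Rheb had 9.28, 9.27 and 9.24 on fibronectin and 9.20, 9.28 and 9.22 on collagen (log2 change 0.03, SE 0.04), and these overlapped. Tsc1 and Tsc2, which hold Rheb inactive, did not pass either, at log2 changes of -0.16 and 0.10. Slc38a9 (Entrez gene 268706), a lysosomal transporter that senses arginine, had 4.04, 4.12 and 4.05 on fibronectin and 4.58, 4.44 and 4.46 on collagen. It fell 1.34-fold (log2 SE 0.05), and of its 5 probe sets above the filter 2 were called lower.

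Probe sets gave the same picture for the pump as single genes did. Fitted as 22496 separate probe sets, of which 15.8% were called lower and 16.2% higher, 29 of 31 tested V-ATPase probe sets were lower and 0 higher. Of 34 tested probe sets of sensing genes, 9 were lower and 0 higher. The remaining 9 V-ATPase and 12 sensing probe sets lay below the filter. With all probe sets of a gene averaged, smaller log2 changes were obtained for several genes. Among them were Atp6v0a1 (-0.21), Atp6v1b2 (-0.26), Atp6v0a2 (-0.31), Atp6v1h (-0.33), Atp6v1e1 (-0.34), Rragd (-0.35) and Rptor (-0.16), all still called lower. Mtor, at -0.09, and Lamtor1, at -0.10, were then not called. For all of the genes named here except Atp6v0a2 and Lamtor1 the averages take in probe sets that lay below the filter.

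**Figure D4:**
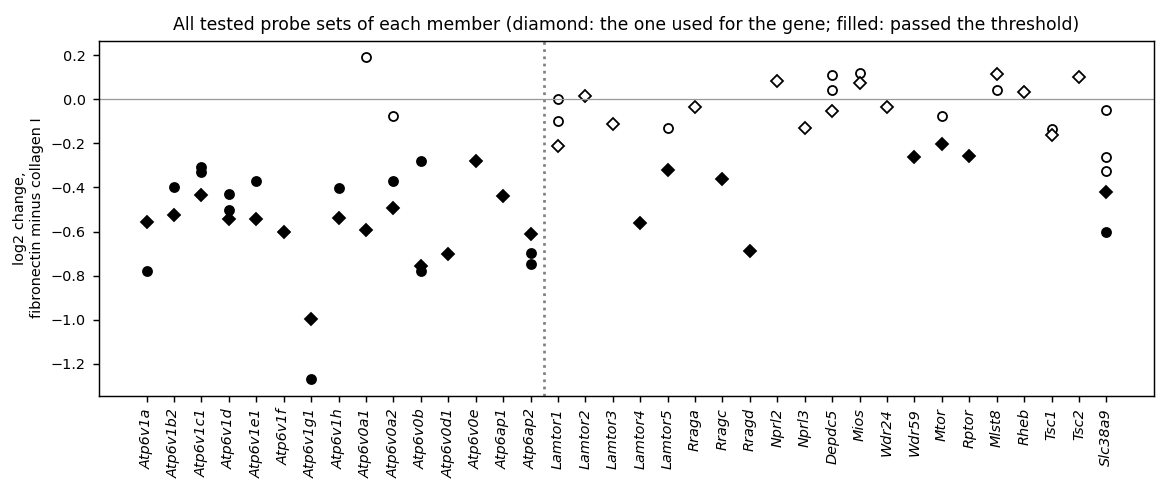
Log2 change, fibronectin minus collagen I, of all 65 tested probe sets of the members; diamonds mark the probe set used for the gene and filled symbols passed the threshold over probe sets. Left of the dotted line 29 of 31 V-ATPase probe sets are filled and lie below 0, and right of it 9 of 34 are. Over all probe sets tested, 15.8% were called lower and 16.2% higher.

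Other genes of the pathway were listed by role. Of 79 listed genes 60 were tested, and 15 were called lower and 10 higher, near the 20.2% lower and 19.9% higher among all genes tested. The counts by role that follow are small, and nothing about the pathway is read from them. Among the tissue-restricted isoforms of the pump 5 of 7 measured genes lay below the filter, among them Atp6v0d2, an osteoclast isoform (0.66 to 0.90 on fibronectin and 0.64 to 1.00 on collagen). The other 2 were called lower. Tcirg1, the a3 isoform, averaged 6.69 ± 0.02 on fibronectin and 7.04 ± 0.06 on collagen (SD, n = 3 each; adjusted p = 0.0011 in limma). Atp6v1g2, with a log2 change of -0.33, was dim and near the filter of 2.33. It averaged 2.50 ± 0.09 on fibronectin and 2.83 ± 0.10 on collagen (SD, n = 3 each).

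Genes for assembly and control of the pump gave 3 lower and 1 higher of 12 tested (all genes, 20.2% and 19.9%), with a median log2 change of -0.09. Rnasek, which associates with the V0 sector, averaged 6.61 ± 0.04 on fibronectin and 7.11 ± 0.08 on collagen (SD, n = 3 each; 1.42-fold lower). Wdr7, a rabconnectin that takes part in joining V1 to V0, fell 1.38-fold, whereas Dmxl1, another rabconnectin, rose 1.22-fold (adjusted p = 0.0382 in limma), a call lost when any 1 of 4 samples was left out. Tmem199, an assembly factor, fell 1.22-fold. Ncoa7, which binds V1, had a change of 0.04 that did not pass.

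Among the upstream nutrient sensors 6 were lower and 4 higher of 19 tested (all genes, 20.2% and 19.9%). Flcn and Fnip1, partners that act on the C-type and D-type Rag GTPases, had log2 changes of -0.59 and -0.58. Flcn averaged 6.13 ± 0.07 on fibronectin and 6.73 ± 0.19 on collagen (SD, n = 3 each). Pqlc2, a lysosomal exporter of cationic amino acids, fell 1.49-fold, and Castor2, a relative of the arginine sensor Castor1, fell 1.52-fold, or by 0.39 on the log2 scale with its probe sets averaged. Slc7a5, a plasma membrane importer of leucine, rose 1.52-fold, averaging 7.33 ± 0.07 on fibronectin and 6.72 ± 0.13 on collagen (SD, n = 3 each).

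The sestrins Sesn1, Sesn2 and Sesn3, with log2 changes of -0.08, 0.09 and -0.04, did not pass, and neither did Castor1 (0.04), although Sesn2 passed with its probe sets averaged (0.23). Rragb, the B-type Rag, was paired with no probe set. Other subunits and regulators of the mTOR complexes had 0 lower and 3 higher of 11 tested (all genes, 20.2% and 19.9%). Ddit4l, an inhibitor of mTORC1, rose 1.26-fold, as did Tti2, which helps fold mTOR-type kinases, and Tbc1d7, the third TSC subunit, rose 1.18-fold. Tti2 did not pass when its probe sets were averaged (log2 change 0.08), nor did Tbc1d7 (0.12). The mTORC1 inhibitors Akt1s1 (-0.09) and Deptor (0.15) did not pass, although Deptor passed in several alternatives, among them without collagen replicate 1 (0.19) and with its probe sets averaged (0.22).

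Targets and effectors of mTORC1 gave 2 lower and 2 higher of 13 tested (all genes, 20.2% and 19.9%). The translation repressors Eif4ebp2 and Eif4ebp1 rose 1.37-fold and 1.26-fold, while Lpin1, a phosphatidate phosphatase, and Atg13, of the autophagy initiation complex, fell 1.23-fold and 1.12-fold. The call of Atg13 was lost under most alternatives, and the log2 change of Eif4ebp2 was 0.19 with its probe sets averaged, against 0.46. These are transcript levels, and the activity of mTORC1, which is read from phosphorylation, was not measured. Of the Tfeb family, Mitf had 5.03, 5.23 and 5.35 on fibronectin and 6.04, 5.84 and 5.80 on collagen, a 1.61-fold fall (adjusted p = 0.00103 in limma). With its probe sets averaged the log2 change of Mitf was -0.38. Tfe3 fell 1.18-fold (adjusted p = 0.0142 in limma), a call lost without fibronectin replicate 3 (adjusted p = 0.0522 in limma), and Tfeb, at a dim 2.94 ± 0.19 on fibronectin and 3.09 ± 0.14 on collagen (SD, n = 3 each), did not pass.

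**Figure D5:**
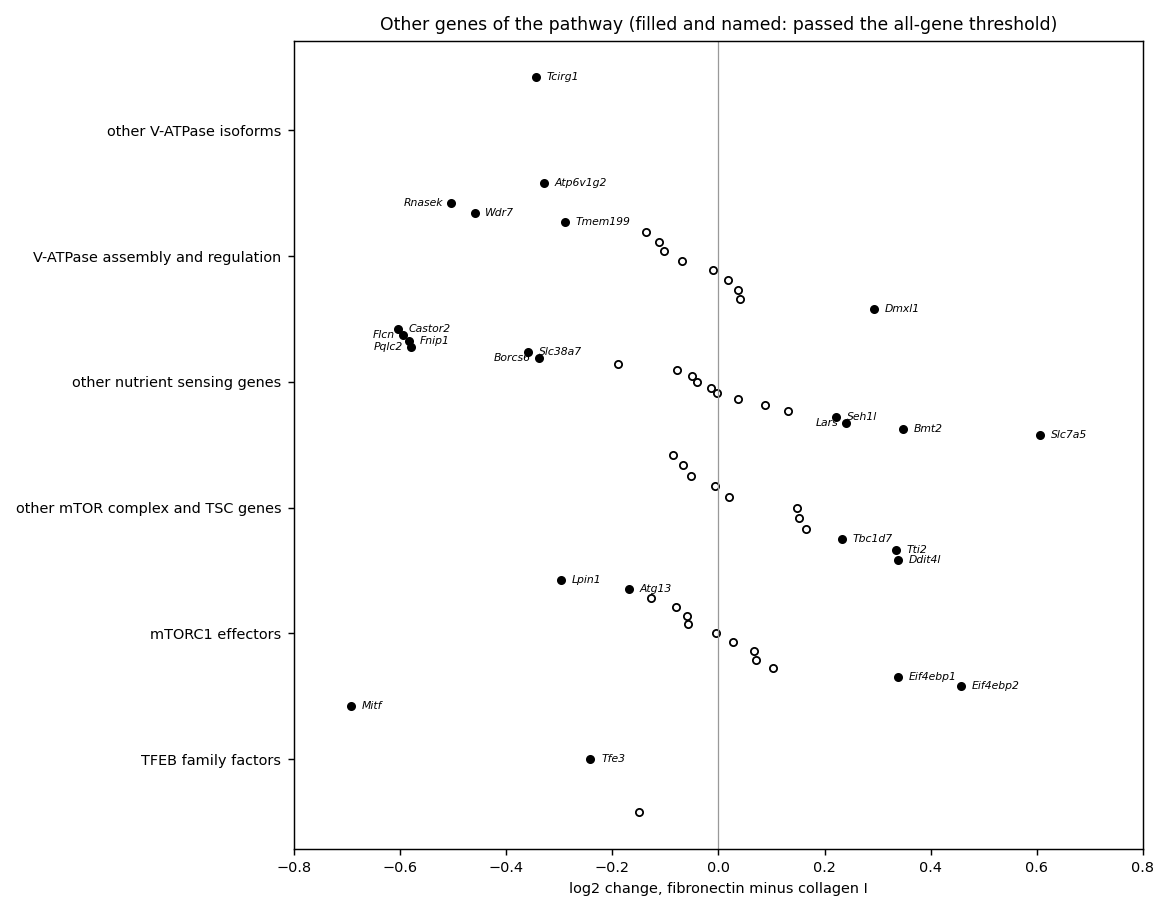
Log2 change, fibronectin minus collagen I, of 60 tested genes of the pathway that are not members, by list; filled and named points passed the all-gene threshold. Lower calls (15) and higher calls (10) both occur (all genes, 20.2% and 19.9%), from Mitf at -0.69 to Slc7a5 at 0.61.

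Markers of other cell types, among them macrophages and osteoclasts, which carry much V-ATPase, were examined beside these results. Of 12 macrophage markers 3 lay above the filter, and the linear signal summed over all 12 was 48.8 to 54.1 on fibronectin and 66.4 to 74.0 on collagen. Those above it were Cd14, Cd68 and Csf1r, the receptor for a macrophage growth factor, at 3.04 to 3.43 on fibronectin and 3.18 to 3.28 on collagen. The other 9 lay below it, among them Ptprc at 0.41 to 0.75 on fibronectin and 0.36 to 0.63 on collagen, and Adgre1 at 1.07 to 1.39 on fibronectin and 1.11 to 1.28 on collagen. Cd14 and Cd68, a lysosomal membrane protein, were called lower, with a 2.42-fold fall of Cd68, and Csf1r did not pass (-0.03). All 8 endothelial and all 6 osteoclast markers lay below the filter. The endothelial list summed to 16 to 18 on fibronectin and 18.0 to 20.2 on collagen. Its largest difference was that of Vwf, at 0.41 to 0.65 on fibronectin and 1.58 to 1.89 on collagen. The osteoclast list summed to 13.7 to 14.4 on fibronectin and 13.7 to 14.3 on collagen. Of 9 measured fibroblast markers 7 lay below the filter, and the list summed to 27.6 to 32.3 on fibronectin and 26.9 to 29.1 on collagen. Of the other 2, Thy1 fell by 0.32 and Cd34 rose by 0.58 on the log2 scale.

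Myoblast markers were mixed, with 3 of 9 tested lower and 2 higher (all genes, 20.2% and 19.9%). Chrna1, Des and Ncam1 had log2 changes of -0.31, -0.23 and -0.16, and Vcam1 and Cdh15 of 0.31 and 0.24. The linear signal summed over the 10 measured was 4909 to 5135 on fibronectin and 5377 to 5583 on collagen. Such a sum is weighted towards the brightest gene, Chrna1, which averaged 10.8 on fibronectin and 11.1 on collagen in log2 signal. The part of these differences in the result was not tested. Signals of the 3′ end minus the 5′ end of Gapdh, a sign of RNA quality, were 0.33 to 0.39 on fibronectin and 0.33 to 0.46 on collagen, and those of Actb were 0.57 to 0.65 on fibronectin and 0.63 to 0.72 on collagen, so the coatings overlapped for both.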

How the data were processed

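Total RNA of 6 samples was hybridised to Affymetrix arrays. The authors deposited log2 values, 1 for each probe set and sample. Affymetrix Expression Console and RMA are named per the submitters' processing notes. RMA as a method corrects background, normalises across arrays and summarises probe sets. The sources used here name neither versions nor scan dates, and no batch was examined. The values were used as deposited. Normalisation across arrays removes a change shared by most genes, and the number of arrays limits the precision.

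The annotation paired 34958 of 45101 probe sets with 1 gene, 932 with several genes and 9211 with none. Symbols were updated through a RefSeq gene table (18033 of 18195 genes found). Where several probe sets shared a gene, the brightest on average stood for it, and 10942 genes reached the filter at the median (2.33). The comparison was fitted with limma 3.58.1 in R 4.3.3 (lmFit and eBayes, two-sided, fibronectin minus collagen), with p-values adjusted over these genes by Benjamini-Hochberg and called below 0.05. The procedure was tested on simulated data with 50 genes changed at each size, far fewer than the share called here. It recovered 56% of 1.25-fold and 92% of 1.5-fold changes, and 14 of 187 calls were false. Small changes can thus be missed. No exact permutation test was run, because its smallest possible p for 1 gene at this sample size is 0.1. Plots used matplotlib 3.10.9 in Python 3.11.15.

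The members and lists were chosen with earlier results of these data known. All members are named. Values in every sample are given for up to 8 largest falls among called members whose samples do not overlap (0 rises were called) and for the brightest member of each role, and up to 4 called genes of each other list by smallest p are named, with some fixed genes. The markers Ptprc, Adgre1, Csf1r, Cd14, Cd68, Thy1, Cd34, Vwf, Chrna1, Des, Ncam1, Vcam1 and Cdh15 were named after their values were seen. Myod1, also from the marker lists, was likewise not one of the fixed genes. Same-numbered samples of the coatings were compared by their deviations from group means (correlations 0.10, -0.0093 and 0.078), which does not show pairing.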

Additional observations from a re-analysis of the deposited data

How the results depend on the processing

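Over 17 alternatives the V-ATPase subunits called lower numbered 14 or 15, with 0 called higher in any. The count of 14 came with the filter at the 75th percentile, which left Atp6v0a1 untested. Leaving out 1 sample at a time gave 15 in each case, with medians between -0.56 and -0.54. The median was -0.49 with samples centred on their medians and -0.44 with all probe sets of a gene averaged. Sensing genes called lower numbered 6 to 11, with 6 at an adjusted p of 0.01 and 7 to 9 when a sample was left out, and 0 were called higher. The sensing median was -0.075 with samples centred and -0.14 to -0.10 when a sample was left out. With the replicate number as a block, which these data do not show to pair the samples, 15 V-ATPase and 9 sensing genes were lower, and only the call of Nprl3 among members was lost. Over the alternatives 9.98% to 23.3% of all genes were called lower and 8.25% to 27.6% higher.

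Of 36 tested members 30 kept their call in all alternatives that tested them. The others were Lamtor1, Lamtor3, Mtor, Nprl3, Tsc1 and Wdr59. Lamtor1 had a change of 0.00067 (adjusted p = 0.993 in limma) when probe sets without a suffix were preferred. Lamtor3 passed with an intensity trend, and Tsc1 in 2 alternatives. Wdr59 was lost at an adjusted p of 0.01.

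For the other genes of the pathway, alternatives added after seeing the data gave 12 to 16 lower and 5 to 13 higher calls. The count of higher calls was 6 without a filter, where 8.25% of all genes were called higher, against 19.9% in the main setting. At an adjusted p of 0.01 it was 5, where 10.7% of all genes were called higher. It was 6 to 11 when a sample was left out. Without fibronectin replicate 2 and without fibronectin replicate 3 it was 6, where 15.1% and 15.3% of all genes were called higher. The cause was not tested.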
